A study of Homo sapiens with 6 samples.

Results

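The genes described here make cholesterol and fatty acids or control their making. They are 32 of the 48183 gene names in the deposited count table, chosen by name: 7 of the mevalonate steps, 3 that lead from farnesyl diphosphate through squalene to lanosterol, 8 that lead from lanosterol to cholesterol, 1 sterol carrier, 4 of the SREBP control system, 4 of fatty acid synthesis and 5 of desaturation and elongation. All 32 were found, and all 32 passed the filter on low counts. The list does not hold every enzyme of either pathway.

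The study asked whether activating AMPK, a kinase that senses low cellular energy, or p38 acting downstream of it, is enough to turn primed human pluripotent stem cells into naive ones. Bulk RNA-seq was made of 6 libraries, 4 naive and 2 primed, all from a human embryonic stem cell line that carries the EOS-GFP reporter of pluripotent cells. The sample labels name that line H1, while the text of the study names it H9. Primed EOS cells and primed CA-p38 EOS cells, 1 library each, were grown without feeders in StemFit AK02N medium on Matrigel. The CA-p38 line carries in addition a constitutively active p38 that doxycycline switches on, and the labels do not say that it is 1 clone.

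Naive cells were induced from the EOS line with AICAR, an AMPK activator, in PXGL medium (2 libraries, AICAR 1 and AICAR 2), from the CA-p38 EOS line with doxycycline in PXGL medium (1 library, CA-p38), and from the EOS line with the histone deacetylase inhibitor VPA in Ndiff227 medium with PD0325901 and LIF (1 library, VPA). PXGL holds the inhibitors PD0325901, XAV939 and Go6983 with human LIF. The study withdrew AICAR, after a week at a lower dose, and doxycycline before expanding the cells. The sequenced cells were taken many passages after induction. In between, the naive cells were passaged in PXGL, by the study's general methods on mouse embryonic fibroblast feeders, and were then sorted as CD75+/SUSD2+ cells. The study also describes a transfer of CA-p38 cells to feeder-free PXGL, and it does not state feeder use for the sequenced libraries. State therefore goes together with medium, sort and, where used, feeders. Their parts in any difference between naive and primed cells cannot be told apart. The study gives its AICAR samples at neighbouring passages of the same induction scheme, without saying whether they were separate inductions. Nothing states that AICAR 1 and AICAR 2 came from separate cultures, and every other combination of line and method has 1 library. The p-values therefore measure the spread between these libraries. In primed cells that spread is between the 2 parental lines, and in naive cells it includes the line and the method of induction.

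Total counts ran from 46823699 to 54277064 per library. The 6 naive marker genes summed to between 1854 and 2155 CPM (counts relative to library size, scaled by TMM, which corrects for differences in library composition) in naive libraries and at most 9.88 CPM in primed ones, and the 5 primed markers ran the other way, with at most 42.5 CPM in naive libraries and at least 2372 CPM in primed ones. The 7 fibroblast markers summed to 30.9 to 72.9 CPM in naive and 191 to 209.5 CPM in primed libraries, with 4 of the 7 lower and 1 higher in all naive libraries and none at 0 throughout the naive libraries. The part of these cell types in the results below was not tested.

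Cells build cholesterol from acetyl-CoA by way of mevalonate, farnesyl diphosphate, squalene and lanosterol, and build saturated fatty acids from the same acetyl-CoA before desaturases and elongases modify them. Many genes of both routes are switched on by the transcription factors SREBP-1 and SREBP-2, encoded by SREBF1 and SREBF2. When sterols are low, the escort protein SCAP carries SREBP from the endoplasmic reticulum to the Golgi, where proteases free its active part. When sterols are high, INSIG proteins hold SCAP and SREBP back. AMPK is known to restrain fatty acid synthesis by phosphorylating acetyl-CoA carboxylase, a change in the protein that RNA levels do not show.

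The promoter stretches of 5 of these genes, picked with their values known, are shown first, since SREBP-2 target promoters are known for sterol regulatory elements that lie close to sites of NF-Y and SP1. Each is the 150 bases before a RefSeq start site, on the strand of the gene and in build GRCh38.p14. Capitals mark every match, on either strand, to the sterol regulatory element TCACNCCAC, the E-box CACGTG, the CCAAT box CCAAT of NF-Y and the GC box GGGCGG of SP1, of which CCAAT read on the other strand appears as ATTGG. HMGCS1 (chr5:43313413-43313562, minus strand), SC5D (chr11:121292621-121292770, plus strand) and SREBF2 (chr22:41832955-41833104, plus strand) were lower in naive cells, and SREBF1 (chr17:17836987-17837136, minus strand) and PMVK (chr1:154936720-154936869, minus strand) were higher. SC5D and HMGCS1 each have 2 start sites in the table, and the first listed is shown.
HMGCS1: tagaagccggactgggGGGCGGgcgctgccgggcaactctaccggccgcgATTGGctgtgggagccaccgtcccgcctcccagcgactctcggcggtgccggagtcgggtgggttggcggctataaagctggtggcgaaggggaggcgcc
SC5D: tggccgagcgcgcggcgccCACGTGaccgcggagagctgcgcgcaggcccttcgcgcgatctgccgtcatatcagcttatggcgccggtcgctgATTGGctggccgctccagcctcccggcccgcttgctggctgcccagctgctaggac
SREBF2: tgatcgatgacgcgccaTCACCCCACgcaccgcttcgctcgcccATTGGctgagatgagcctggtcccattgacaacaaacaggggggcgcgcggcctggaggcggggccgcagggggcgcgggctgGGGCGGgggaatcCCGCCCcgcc
SREBF1: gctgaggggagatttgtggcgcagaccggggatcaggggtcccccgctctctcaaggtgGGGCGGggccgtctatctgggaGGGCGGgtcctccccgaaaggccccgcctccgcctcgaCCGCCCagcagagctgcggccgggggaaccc
PMVK: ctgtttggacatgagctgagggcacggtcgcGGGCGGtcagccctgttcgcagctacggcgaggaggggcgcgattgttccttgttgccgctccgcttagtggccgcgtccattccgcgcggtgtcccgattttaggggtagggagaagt

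In the stretches printed, a CCAAT box lies 100 bases before the start in HMGCS1, 56 in SC5D and 106 in SREBF2, and those of SREBF1 and PMVK hold GC boxes and no CCAAT box. The 150 bases before the second HMGCS1 start hold no CCAAT box either, and EBP, the other gene that was higher, holds one in its window. SREBF2 also holds the sterol regulatory element consensus, 133 bases before its start, and SC5D an E-box 131 bases before its start. Over the whole 300-base windows (250 bases before and 50 after each start site), 28 of the 32 genes had at least 1 RefSeq promoter, and those of FDFT1, SQLE, ACAT2 and FASN were not used here. CCAAT boxes occurred in 22 of the 28 genes, against 39.7% of all 27305 symbols with a promoter and 42.3% of the 14375 such symbols tested in these data. Of the 23 genes with a promoter that were lower in naive cells, 19 held one, as did 3 of the other 5 (EBP, NSDHL and ACACB). The 6 without one were PMVK, CYP51A1, SREBF1, SCAP, FADS1 and ELOVL6. GC boxes occurred in 26 of 28 genes, against 48.3% of all symbols and 69.4% of those tested. E-boxes occurred in 5 (LSS, SC5D, SCAP, INSIG1 and ELOVL5), against 8.77% of all symbols and 11.5% of those tested. The sterol regulatory element consensus occurred in SREBF2 alone, against 1.39% of all symbols and 1.5% of those tested. These are matches of letters in a window and not measured binding sites. Variants of these letters and sites outside the window were not searched, so a gene without a match may still hold such a site.

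Most of the genes were lower in naive than in primed cells. Together they took 0.385% to 0.417% of all counts in the 4 naive libraries and 0.839% and 0.860% in the 2 primed libraries, a 2.09-fold higher share in primed cells. In edgeR's quasi-likelihood test, adjusted over 26497 gene names by the Benjamini-Hochberg method, 30 of the 32 differed between naive and primed cells, against 53.1% of all gene names. Of these, 27 were lower in naive cells, against 27% of all, and 3 were higher (SREBF1, PMVK and EBP), against 26% of all. NSDHL and ACACB did not pass the threshold, an adjusted p of 0.05. The median log2 fold change (naive over primed) of the 32 genes was -1.0, while that of all gene names tested was 0.11. Among the 9701 gene names with a mean level at least that of the lowest of the 32, 40.1% were lower and 30.3% higher, with a median of -0.12. RNA was measured in bulk and scaled to the total, so fewer cells of a type and less RNA per cell cannot be told apart.

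The 2 states did not overlap for 30 of the genes. In 27, every naive library was below both primed libraries, against 32.1% of all gene names tested, and in 3, every naive library was above both, against 32.9% of all. The naive libraries lay close together, with a coefficient of variation over the 4 libraries of 2.51% (FADS2) to 18.3% (TM7SF2) and a median of 7.93%. Genes of cholesterol synthesis and transport took 0.140% ± 0.00431 (SD, n = 4) of counts in naive and 0.306% ± 0.0127 (SD, n = 2) in primed libraries, and genes of fatty acid synthesis, desaturation and elongation took 0.213% ± 0.00927 and 0.483% ± 0.00318. The share in primed cells was 2.18 times that in naive cells for the first set and 2.27 times for the second. The exact two-sided permutation test of such a share gives p = 0.0667 for each of the 5 shares and ratios tested, raw and adjusted, which is the smallest that 4 against 2 libraries allow.

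**Figure D1:**
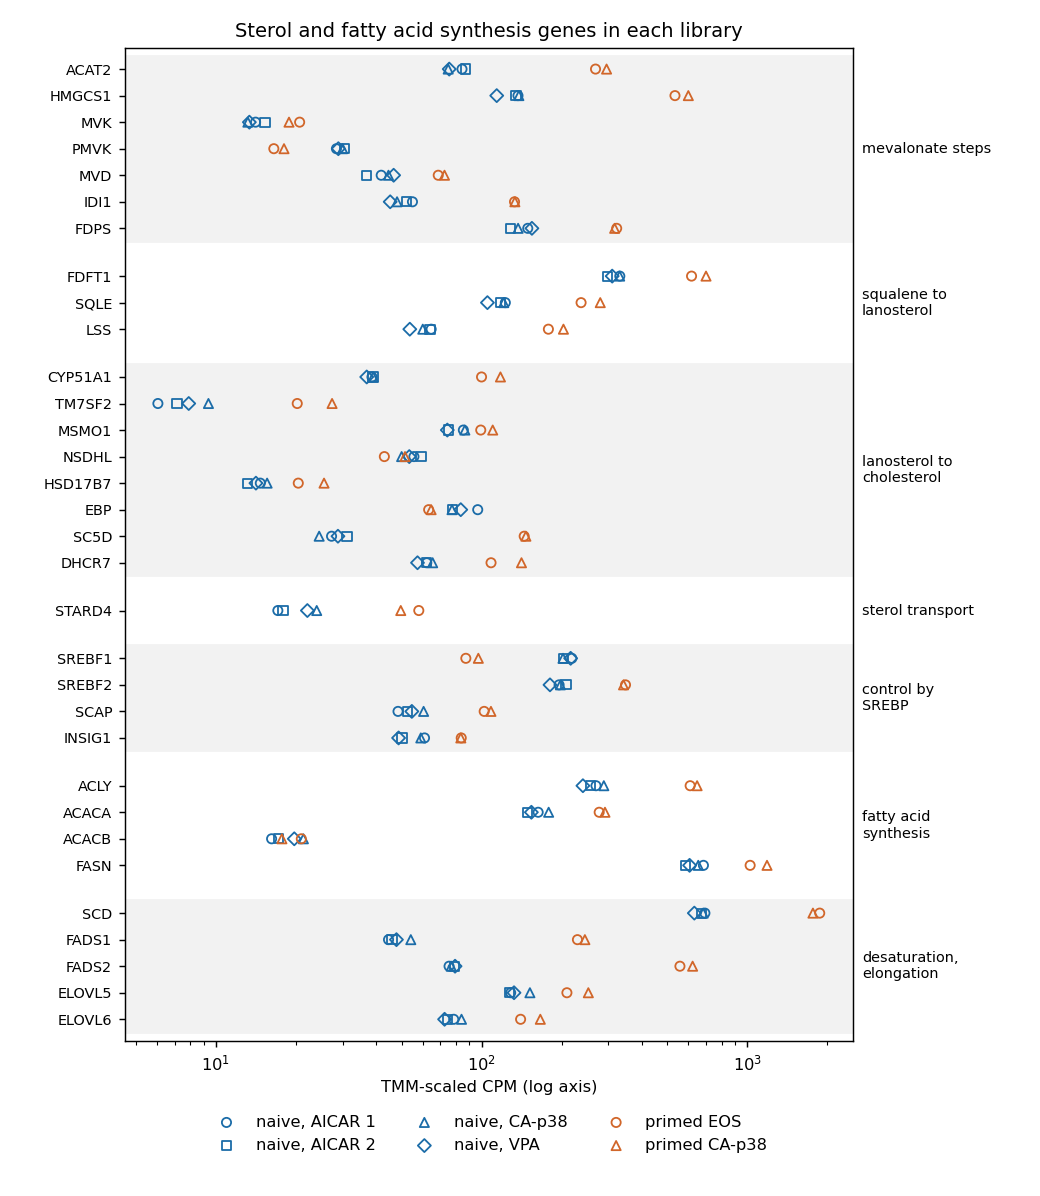
TMM-scaled CPM on a log axis for each of the 32 genes, ordered by role, with 1 point per library (blue for the 4 naive, orange for the 2 primed libraries). The blue points lie to the left of the orange ones in 27 genes, to the right in PMVK, EBP and SREBF1, and mix with them in NSDHL and ACACB.

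All 7 genes of the mevalonate steps differed between the states, 6 lower and 1 higher in naive cells. HMGCS1, the cytosolic synthase that makes HMG-CoA, was read at 534 CPM in primed EOS cells, 599.5 CPM in primed CA-p38 cells, and 114, 138, 137 and 135 CPM in the naive VPA, CA-p38, AICAR 1 and AICAR 2 libraries. Every naive library was far below either primed library, and VPA was the lowest. The fall was 4.33-fold in edgeR's quasi-likelihood test (log2 fold change -2.11 ± 0.10, adjusted p = 3.05e-09), the greatest of the mevalonate steps. ACAT2, the cytosolic thiolase that joins 2 acetyl-CoA molecules for this route, was read at 268 CPM in primed EOS cells, 295 CPM in primed CA-p38 cells, and 75.5, 74.9, 84.4 and 87.0 CPM in the naive VPA, CA-p38, AICAR 1 and AICAR 2 libraries. Its naive libraries were close to each other and far below the primed ones (log2 fold change -1.81 ± 0.10, adjusted p = 1.15e-08 by the same test).

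PMVK, the phosphomevalonate kinase, went the other way, with 16.5 CPM in primed EOS cells, 18.1 CPM in primed CA-p38 cells, and 28.9, 30.0, 28.4 and 30.5 CPM in the naive VPA, CA-p38, AICAR 1 and AICAR 2 libraries. All 4 naive libraries lay above both primed libraries, and the rise was 1.70-fold (log2 fold change 0.77 ± 0.13, adjusted p = 0.000317, edgeR's quasi-likelihood test). The kinase that acts just before it, MVK, was read at 20.7 CPM in primed EOS cells, 18.9 CPM in primed CA-p38 cells, and 13.4, 13.2, 14.1 and 15.3 CPM in the naive VPA, CA-p38, AICAR 1 and AICAR 2 libraries. It fell by little (log2 fold change -0.50 ± 0.15, adjusted p = 0.0129, the same test), and without the primed EOS library its adjusted p was 0.102. The decarboxylase MVD, which acts just after PMVK, fell 1.66-fold, from 70.6 ± 2.70 CPM (SD, n = 2) to 42.5 ± 4.22 CPM (SD, n = 4). A rise in PMVK thus stood between falls in the enzymes on either side of it in the pathway.

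IDI1, the isomerase of the 5-carbon units that the route joins, averaged 50.1 ± 4.26 CPM in naive and 133 ± 0.289 CPM in primed cells, a log2 fold change of -1.41 ± 0.11. FDPS, which joins those units to farnesyl diphosphate, averaged 142 ± 11.8 CPM in naive and 319 ± 3.95 CPM in primed cells, a log2 fold change of -1.17 ± 0.10. Per kilobase of canonical transcript, FDPS was the third highest of the 32 genes in both states. For IDI1, FDPS and ACAT2, between 15% and 18.6% of annotated exon bases are shared with a gene on the opposite strand, and for HMGCS1 37.7%. ACAT2 shares further exon bases with SOD2 (5.04%) and SOD2-OT1 (3.71%), also on the opposite strand. Whether counting used strand is not stated, so reads of such partners cannot be told apart in those stretches.

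The 3 genes that commit the route to sterols all fell by more than 2-fold. FDFT1, squalene synthase, was read at 616 CPM in primed EOS cells, 699 CPM in primed CA-p38 cells, and 310.0, 331, 331 and 298 CPM in the naive VPA, CA-p38, AICAR 1 and AICAR 2 libraries. SQLE, squalene epoxidase, was read at 237 CPM in primed EOS cells, 279.5 CPM in primed CA-p38 cells, and 105, 121, 123 and 118 CPM in the naive VPA, CA-p38, AICAR 1 and AICAR 2 libraries. LSS, which folds the epoxide into lanosterol, was read at 178 CPM in primed EOS cells, 203 CPM in primed CA-p38 cells, and 53.7, 60.1, 64.6 and 63.9 CPM in the naive VPA, CA-p38, AICAR 1 and AICAR 2 libraries. In each of them the naive libraries formed a tight group below the primed ones, and primed CA-p38 was higher than primed EOS. The log2 fold changes were -1.05 ± 0.09 for FDFT1, -1.14 ± 0.11 for SQLE and -1.66 ± 0.11 for LSS, the greatest adjusted p being 1.15e-06 by edgeR's quasi-likelihood test. FDFT1 and LSS are each listed under 2 identifiers, 1 of them on an alternative sequence. Their counts were summed, and the identifier on the chromosome held 62.8% of the FDFT1 and 63.7% of the LSS counts.

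Of the 8 genes that turn lanosterol into cholesterol, 6 fell, 1 rose and 1 did not pass the test. SC5D, the desaturase of a late step, fell more than any other sterol gene of the list, being read at 145 CPM in primed EOS cells, 147 CPM in primed CA-p38 cells, and 28.8, 24.5, 27.3 and 31.2 CPM in the naive VPA, CA-p38, AICAR 1 and AICAR 2 libraries. The 4 naive libraries were each far below either primed library, and the primed libraries were nearly equal. The fall was 5.22-fold (log2 fold change -2.38 ± 0.11, adjusted p = 2.66e-09, edgeR's quasi-likelihood test). EBP, the sterol isomerase that acts just before SC5D, was read at 63.2 CPM in primed EOS cells, 64.6 CPM in primed CA-p38 cells, and 83.5, 77.4, 96.7 and 77.9 CPM in the naive VPA, CA-p38, AICAR 1 and AICAR 2 libraries. Its naive libraries all lay above the primed ones, with AICAR 1 highest (log2 fold change 0.39 ± 0.12, adjusted p = 0.0149, the same test). The call for EBP was lost without AICAR 1 (adjusted p = 0.0528, the same test). It was also lost without either primed library, at log2 fold changes of 0.36 without primed EOS and 0.41 without primed CA-p38. About 36.4% of its exon bases are shared with a same-strand gene, and whether that gene was counted apart was not looked at.

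NSDHL, a dehydrogenase that helps to remove methyl groups from lanosterol, was read at 43.1 CPM in primed EOS cells, 51.5 CPM in primed CA-p38 cells, and 53.4, 50.02, 55.6 and 59.1 CPM in the naive VPA, CA-p38, AICAR 1 and AICAR 2 libraries. Primed CA-p38 lay within the naive range, so the groups overlapped, and the difference did not pass the threshold (log2 fold change 0.21 ± 0.12, adjusted p = 0.180, edgeR's quasi-likelihood test). With library totals in place of TMM factors, NSDHL was higher in naive cells at an adjusted p of 0.0490. NSDHL and EBP are the 2 genes of the list on the X chromosome (chrX:152830967-152869729 and chrX:48521799-48528716 in GRCh38). Of the 626 protein-coding gene names tested on that chromosome, 132 were higher and 324 lower in the naive state, that is 21.1% and 51.8%, with a median log2 fold change of -0.61. Of all protein-coding gene names tested, 27.4% were higher and 37.1% lower, with a median of -0.12.

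CYP51A1, the lanosterol demethylase that opens this stage, was read at 99.95 CPM in primed EOS cells, 118 CPM in primed CA-p38 cells, and 37.0, 39.1, 38.7 and 39.0 CPM in the naive VPA, CA-p38, AICAR 1 and AICAR 2 libraries, and fell 2.83-fold (log2 fold change -1.50 ± 0.11, adjusted p = 1.08e-07, edgeR's quasi-likelihood test). The naive libraries differed from each other by less than in any other gene of this stage. About 68.2% of its exon bases are shared with a same-strand gene and 67.8% with another. Whether these genes were counted apart was not looked at, so the reads assigned to CYP51A1 may be only part of those from the locus. TM7SF2, a sterol reductase, had the lowest mean CPM of the 32 genes over the 6 libraries and was the most variable among naive libraries, with 20.2 CPM in primed EOS cells, 27.4 CPM in primed CA-p38 cells, and 7.91, 9.38, 6.06 and 7.15 CPM in the naive VPA, CA-p38, AICAR 1 and AICAR 2 libraries. It nonetheless fell 3.12-fold without overlap.

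MSMO1, the methylsterol monooxygenase, changed least among the sterol genes that fell, averaging 80.3 ± 6.57 CPM in naive and 105 ± 7.67 CPM in primed cells (log2 fold change -0.38 ± 0.11). Without primed CA-p38 its adjusted p was 0.118. HSD17B7, the ketosteroid reductase that works with MSMO1 and NSDHL, averaged 14.4 ± 1.03 CPM in naive and 23.0 ± 3.61 CPM in primed cells (log2 fold change -0.67 ± 0.15), and without primed CA-p38 its adjusted p was 0.0652. DHCR7, the reductase that makes cholesterol itself in the last step of one branch, averaged 61.8 ± 3.31 CPM in naive and 125 ± 23.2 CPM in primed cells (log2 fold change -1.02 ± 0.12). The 3 genes that act together on the methyl groups of lanosterol, MSMO1, NSDHL and HSD17B7, thus held log2 fold changes between -0.67 and 0.21, nearer to 0 than those of CYP51A1 before them or SC5D after them. This did not set them apart from EBP, which acts just before SC5D and was at 0.39, nearer to 0 than HSD17B7.

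STARD4, a small carrier that moves cholesterol between membranes, was read at 58.0 CPM in primed EOS cells, 49.6 CPM in primed CA-p38 cells, and 22.1, 23.97, 17.1 and 17.9 CPM in the naive VPA, CA-p38, AICAR 1 and AICAR 2 libraries. It fell 2.66-fold (log2 fold change -1.41 ± 0.15, adjusted p = 5.52e-06, edgeR's quasi-likelihood test). The fall was smaller in CA-p38 cells, whose parental primed library was the lower of the 2, than in the AICAR libraries.

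**Figure D2:**
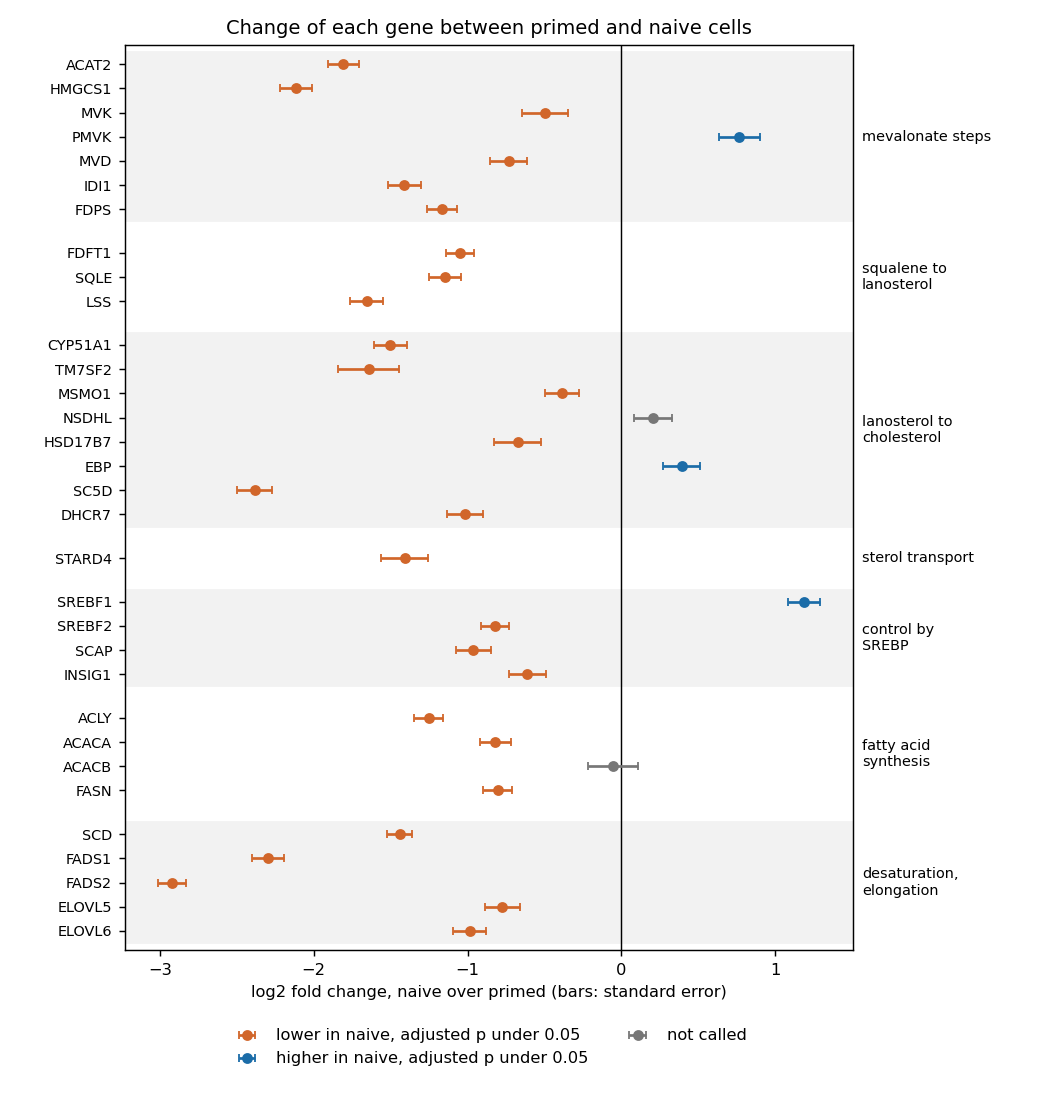
Log2 fold change of each gene, naive over primed cells, from edgeR's quasi-likelihood fit, with bars of 1 standard error. Orange points passed the threshold below 0 (27 genes, from MSMO1 at -0.38 to FADS2 at -2.92), blue points passed it above 0 (3 genes, SREBF1 being farthest at 1.19) and grey points did not pass it (NSDHL and ACACB).

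The genes of SREBP control moved in opposite directions. SREBF1, which encodes SREBP-1, known mainly for fatty acid genes, was read at 87.2 CPM in primed EOS cells, 97.2 CPM in primed CA-p38 cells, and 216, 202, 218 and 203 CPM in the naive VPA, CA-p38, AICAR 1 and AICAR 2 libraries. Every naive library was more than 2 times either primed library, and the rise was 2.28-fold (log2 fold change 1.19 ± 0.10, adjusted p = 6.93e-07, edgeR's quasi-likelihood test). It was the greatest rise of the 32 genes. SREBF2, which encodes SREBP-2, known mainly for cholesterol genes, was read at 348 CPM in primed EOS cells, 342 CPM in primed CA-p38 cells, and 181, 198, 196 and 208 CPM in the naive VPA, CA-p38, AICAR 1 and AICAR 2 libraries. All naive libraries were below both primed libraries (log2 fold change -0.82 ± 0.09, adjusted p = 7.37e-06, the same test).

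Counts of SREBF1 for each count of SREBF2 were 1.08 ± 0.0981 (SD, n = 4) in naive and 0.268 ± 0.0237 (SD, n = 2) in primed libraries, a 4.03-fold difference that does not depend on how libraries are scaled. Per kilobase of canonical transcript, SREBF2 was the higher in primed cells (65.9 CPM per kb against 18.8 for SREBF1), and in naive cells SREBF1 was at 42.8 and SREBF2 at 37.3 CPM per kb. The rise of SREBF1 was thus measured in the same libraries in which most of the synthesis genes of both arms fell.

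SCAP, the escort of both SREBPs, was read at 102 CPM in primed EOS cells, 108 CPM in primed CA-p38 cells, and 54.6, 60.5, 48.5 and 52.7 CPM in the naive VPA, CA-p38, AICAR 1 and AICAR 2 libraries, and fell 1.95-fold. INSIG1, the sterol-dependent retention protein and itself a known SREBP target, was read at 83.8 CPM in primed EOS cells, 83.5 CPM in primed CA-p38 cells, and 48.7, 59.1, 61.0 and 50.2 CPM in the naive VPA, CA-p38, AICAR 1 and AICAR 2 libraries, and fell 1.53-fold. The log2 fold changes were -0.96 ± 0.11 for SCAP and -0.61 ± 0.12 for INSIG1, and neither gene overlapped between the states.

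**Figure D3:**
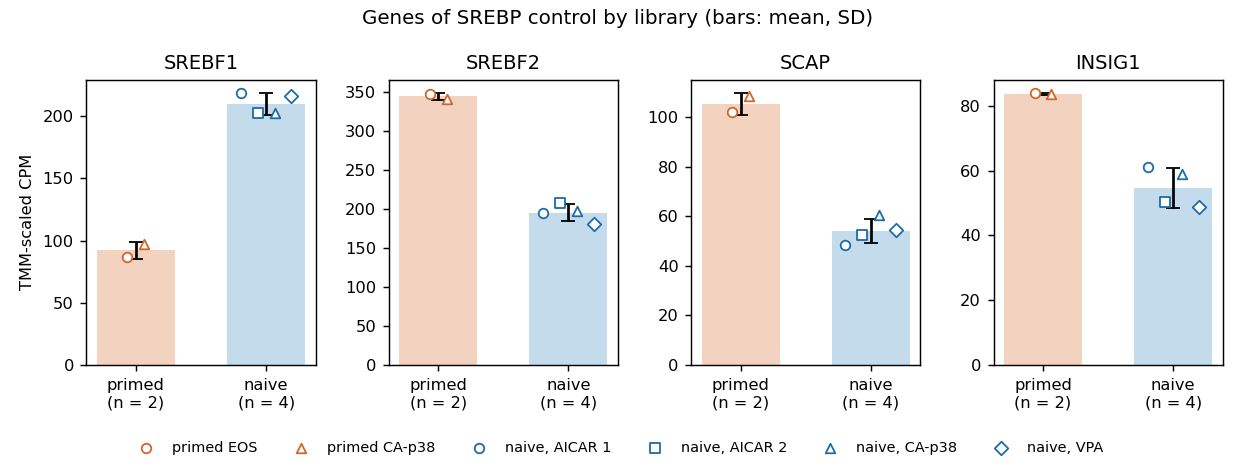
TMM-scaled CPM of SREBF1, SREBF2, SCAP and INSIG1 by library (points), with bars for the mean and error bars for the SD of the 2 primed and the 4 naive libraries. SREBF1 rose from 92.2 to 210.0 CPM, and for the other 3 genes every naive point lies under both primed points.

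Of the 4 genes of fatty acid synthesis, 3 fell and 1 did not pass the test. ACLY, which makes cytosolic acetyl-CoA from citrate and so feeds both arms, was read at 609 CPM in primed EOS cells, 647 CPM in primed CA-p38 cells, and 241, 288, 269 and 256 CPM in the naive VPA, CA-p38, AICAR 1 and AICAR 2 libraries. ACACA, the carboxylase of the first committed step, was read at 277 CPM in primed EOS cells, 291 CPM in primed CA-p38 cells, and 154, 179, 163 and 149 CPM in the naive VPA, CA-p38, AICAR 1 and AICAR 2 libraries. FASN, which assembles the saturated chain, was read at 1024 CPM in primed EOS cells, 1185 CPM in primed CA-p38 cells, and 606, 653, 683 and 587 CPM in the naive VPA, CA-p38, AICAR 1 and AICAR 2 libraries. For all of them every naive library was below both primed libraries, and CA-p38 or AICAR 1 was the highest of the naive group. The falls were 2.38-fold for ACLY, 1.76-fold for ACACA and 1.75-fold for FASN, with log2 fold changes of -1.25 ± 0.09, -0.82 ± 0.10 and -0.80 ± 0.10. ACACA is listed under 2 identifiers, which were summed, the one on the chromosome holding 50.7% of its counts.

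ACACB, the second carboxylase, is known for the mitochondrial surface, where its product restrains fatty acid oxidation. It was read at 21.0 CPM in primed EOS cells, 17.7 CPM in primed CA-p38 cells, and 19.7, 21.4, 16.2 and 17.2 CPM in the naive VPA, CA-p38, AICAR 1 and AICAR 2 libraries. The states overlapped, with CA-p38 highest and AICAR 1 lowest of all 6 libraries, and the log2 fold change was -0.05 ± 0.16 (adjusted p = 0.796, edgeR's quasi-likelihood test). ACACB was also the lowest of the 32 genes per kilobase in both states, at 2.07 CPM per kb in primed and 1.99 in naive cells, against 28.4 and 16.1 for ACACA.

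All 5 genes of desaturation and elongation fell, and they held 2 of the 3 greatest falls of the list. FADS2, the desaturase that opens the making of long polyunsaturated fatty acids, was read at 557 CPM in primed EOS cells, 622 CPM in primed CA-p38 cells, and 79.5, 76.9, 75.4 and 79.3 CPM in the naive VPA, CA-p38, AICAR 1 and AICAR 2 libraries. The 4 naive libraries were nearly equal and the fall was 7.58-fold (log2 fold change -2.92 ± 0.09, adjusted p = 7.23e-11, edgeR's quasi-likelihood test), the greatest of the 32 genes. FADS1, the desaturase that acts later in the same route, was read at 229 CPM in primed EOS cells, 245 CPM in primed CA-p38 cells, and 47.8, 54.2, 44.6 and 46.0 CPM in the naive VPA, CA-p38, AICAR 1 and AICAR 2 libraries. It fell 4.92-fold (log2 fold change -2.30 ± 0.10, adjusted p = 1.81e-09, the same test), and again no naive library came near a primed one. FADS1 (chr11:61799627-61829318, minus strand) and FADS2 (chr11:61792980-61867354, plus strand) are neighbours on chromosome 11 whose listed start sites lie 599 and 800 bases apart on opposite strands, and 490 of their exon bases overlap.

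SCD, the desaturase that makes monounsaturated fatty acids, was read at 1871 CPM in primed EOS cells, 1764 CPM in primed CA-p38 cells, and 631, 682, 692 and 671 CPM in the naive VPA, CA-p38, AICAR 1 and AICAR 2 libraries. It was the highest of the 32 genes per kilobase in primed cells, at 347 CPM per kb, and the second in naive cells, at 128. The fall was 2.72-fold (log2 fold change -1.44 ± 0.08, adjusted p = 1.28e-08, edgeR's quasi-likelihood test). FADS2 passed from the 4th place per kilobase in primed cells (191 CPM per kb) to the 15th in naive cells (25.2), and EBP from the 12th (56.8) to the 5th (74.5).

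The elongases of the list fell by less. ELOVL5, which lengthens polyunsaturated chains, averaged 135 ± 11.5 CPM in naive and 231 ± 30.2 CPM in primed cells, a log2 fold change of -0.77 ± 0.11. ELOVL6, which lengthens saturated and monounsaturated chains, averaged 77.4 ± 5.09 CPM in naive and 153 ± 18.5 CPM in primed cells, a log2 fold change of -0.99 ± 0.11. Neither overlapped between the states, and CA-p38 was the highest naive library for both.

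Each naive library was next set against the primed library of its own parental line, a description of 1 library against 1 with no test. The median log2 fold of the 32 genes over primed EOS was -0.95 in VPA, -0.87 in AICAR 1 and -0.94 in AICAR 2, and over primed CA-p38 it was -1.02 in CA-p38. In each of the 4, 28 genes were lower and 4 higher than in the parental library, and 14 to 16 were lower by at least 2-fold. These medians and counts were not made over all gene names, so they have no background share to be read against. The 3 comparisons over primed EOS share that library. FADS2 stood at -2.89 (95% binomial interval of the counts -2.93 to -2.84) in AICAR 1, -2.81 (-2.86 to -2.77) in AICAR 2, -2.81 (-2.86 to -2.76) in VPA and -3.02 (-3.07 to -2.97) in CA-p38. SREBF1 stood at 1.32 (1.27 to 1.37), 1.22 (1.16 to 1.27), 1.31 (1.26 to 1.36) and 1.06 (1.01 to 1.11) in the same order. The Clopper-Pearson intervals cover counting error only.

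The methods of induction lay within 0.07 log2 units of each other for ELOVL5 and up to 0.71 for STARD4, the widest. STARD4 was at -1.76 in AICAR 1, -1.70 in AICAR 2, -1.39 in VPA and -1.05 in CA-p38. ACACB was next, at -0.37, -0.28, -0.09 and 0.27 in that order. In both genes the CA-p38 fold was the most positive and primed CA-p38 was the lower primed library. Over the 32 genes, CA-p38 was the highest naive library for 14 and VPA the lowest for 12, and primed CA-p38 was above primed EOS for 25. The ratio of primed CA-p38 to primed EOS had a median of 1.1 over the 32 genes and was at most 1.35 (TM7SF2). None of these counts was made over all gene names, so whether they are particular to these genes was not tested.

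**Figure D4:**
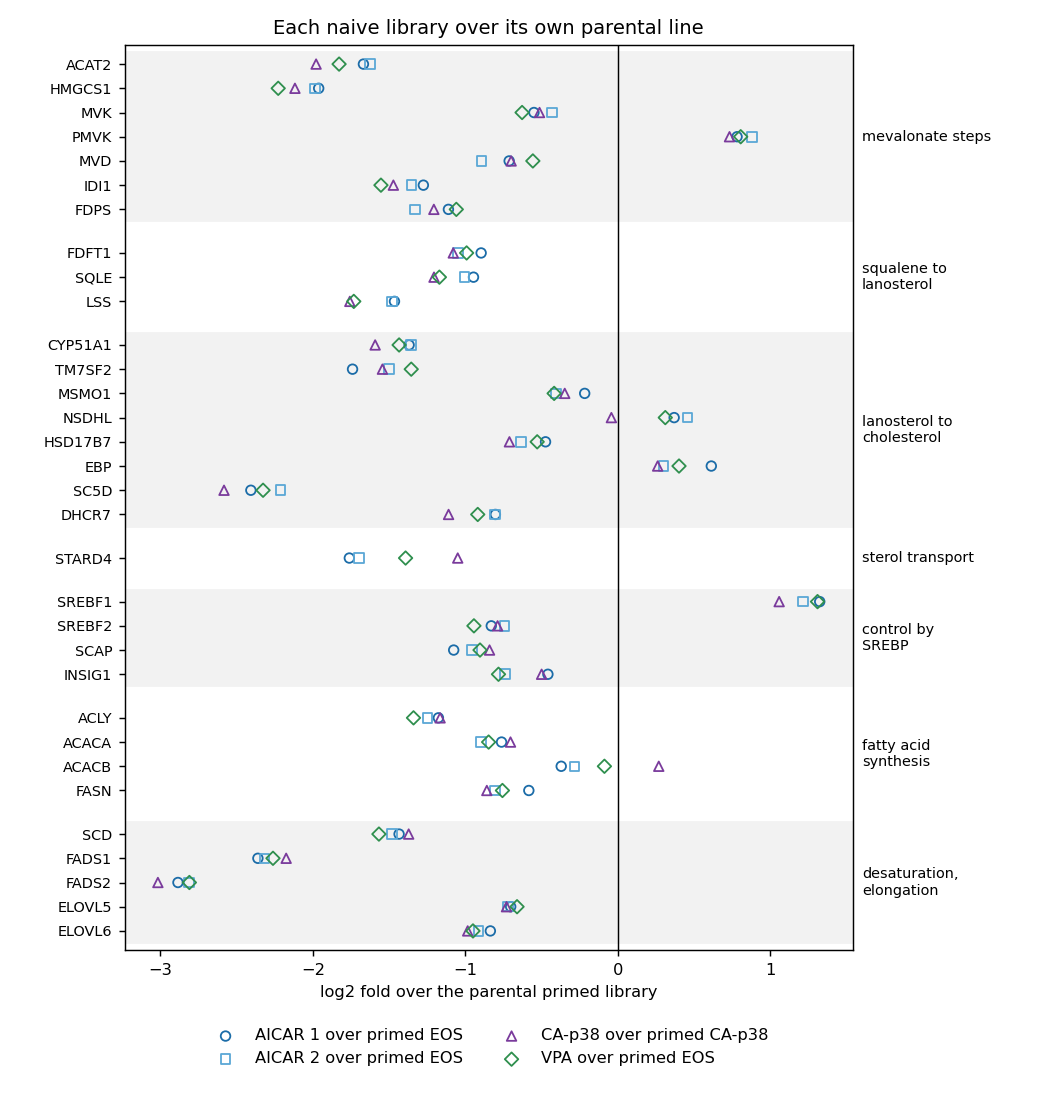
Log2 fold of each naive library over the primed library of its parental line for each of the 32 genes, 1 point per naive library, with 0 marked by a line. The 4 points of a gene lie together, within 0.07 (ELOVL5) to 0.71 (STARD4) log2 units, and lie on both sides of 0 in NSDHL and ACACB.

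Neighbouring pathways were counted in the same way, to be read against the 53.1% of all gene names that passed the test and the 70.3% of those with a mean level at least that of the lowest of the 32 genes. Of 12 genes that process SREBP or work with it at promoters, 5 were lower, 2 higher and 5 did not pass the test, with a median log2 fold change of -0.16. The 58.3% that passed lie near the first of these shares and below the second. Among them, ERLIN2, a protein of the endoplasmic reticulum membrane, was lower (-1.13 ± 0.12), and NFYC, a subunit of NF-Y, was higher (0.56 ± 0.13). The other subunits of NF-Y, named after their values were seen, were both lower, NFYA at -0.57 ± 0.11 and NFYB at -0.83 ± 0.11. INSIG2, the relative of INSIG1, was lower (-1.28 ± 0.36), but its primed libraries stood apart, at 22.2 CPM in the EOS and 7.91 CPM in the CA-p38 line, the latter being below the 9.63 CPM of VPA cells. SP1 was slightly higher (0.30 ± 0.10).

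Of 11 tested genes of sterol efflux, storage and the LXR receptors, 5 were higher and 4 lower (81.8% in all), with a median of 0.04. SOAT1, which esterifies cholesterol for storage, rose (3.24 ± 0.18, 97.9 against 10.3 CPM), as did ABCA1, which exports it (2.26 ± 0.16, 147 against 30.8 CPM). LIPA, the lysosomal lipase that frees cholesterol from its esters, fell (-7.27 ± 0.25, 0.773 against 119 CPM), and so did CYP27A1, which oxidises sterols (-1.78 ± 0.45), from a level near 2.54 CPM.

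The other elongases, desaturases and acyl-activating enzymes, 20 genes, held 7 that were higher and 8 that were lower (75% in all), with a median of -0.08. FADS3, which lies beside FADS1 and FADS2, rose (1.80 ± 0.13, 89.1 against 25.5 CPM). ELOVL3 passed the test as higher, but at under 1 CPM in every library and with overlap. AICAR 2, at 0.0604 CPM, was below primed EOS (0.0606) and primed CA-p38 (0.0818), and the other 3 naive libraries were at 0.693 to 0.736 CPM. ME1, a source of NADPH for fatty acid synthesis, fell (-4.53 ± 0.24, 0.933 against 21.6 CPM), as did ACSL4, which activates polyunsaturated fatty acids (-3.60 ± 0.12, 14.9 against 181 CPM).

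Of 21 genes of fatty acid oxidation, 7 were higher and 10 lower (81.0% in all), with a median of -0.27. CPT1A, which starts the entry of fatty acids into mitochondria, rose (2.70 ± 0.15, 90.5 against 13.9 CPM), as did EHHADH of the peroxisome (2.56 ± 0.32), while ETFA, an electron carrier of the route, fell (-2.05 ± 0.13), as did CPT1C (-1.82 ± 0.20). Of 11 genes of triglyceride synthesis and storage, 8 were higher and 2 lower (90.9% in all), with a median of 1.12. MGLL, a lipase of monoglycerides, rose (4.41 ± 0.23, 58.1 against 2.74 CPM), as did LPIN1, a phosphatidate phosphatase (3.01 ± 0.14, 117 against 14.4 CPM). GPAM, which starts glycerolipid synthesis, fell (-1.52 ± 0.21). DGAT2 also fell (-0.93 ± 0.35), but at low levels, 0.982 against 1.87 CPM, and with an adjusted p of 0.0423 (edgeR's quasi-likelihood test).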

How the data were processed

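Bulk RNA of 4 naive and 2 primed libraries was measured. Per the study's methods, the authors trimmed adapters, mapped reads with Bowtie2 to the transcript sequences of Ensembl release 100 and summed alignments per gene, and they deposited whole counts, without normalization, for each identifier. The submitters' processing notes name cutadapt 1.15, Trim Galore 0.4.4, RSEM and limma. A further 23 columns that match no sample here were set aside, and 26 spike-in rows with at most 1 count in a library were left out. Counts of identifiers sharing a name were summed.

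The states were compared by edgeR 4.0.16 in R 4.3.3 (TMM, filterByExpr, glmQLFit, glmQLFTest, no covariates), with Benjamini-Hochberg adjustment over 26497 gene names and a threshold of 0.05. Values after ± are the SD for levels (n = 4 naive, n = 2 primed) and the standard error for log2 fold changes. Folds over parental libraries used a prior count of 0.5. The lowest count of any of the 32 genes in a library was 329. Gene positions and transcript lengths came from GENCODE release 44 and promoters from RefSeq, both on GRCh38. All 32 genes were named, and from each of the other lists at most the 2 highest and the 2 lowest fold changes past the threshold (and NFYA and NFYB, added later). The genes and lists were chosen with earlier results of these data known. Alternatives covered scaling, test (DESeq2 1.42.0, limma-voom of limma 3.58.1), filter, summing of identifiers, a block for the parental line, AICAR 1 and AICAR 2 added together, and the omission of each library. Python 3.11.15 with pandas 2.3.3 and scipy 1.17.1 was used for the rest.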

Additional observations from a re-analysis of the deposited data

Results flagged for a closer look

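HMGCS1 was set apart by 1 of its 4 naive libraries: VPA, at 114 CPM, lay below the other 3 by 0.858 of the whole range of the group. Chance gives such a gap in about 1 in 20 groups, and 32 groups were looked at.

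The fold of CA-p38 cells over their parental library had another sign than those of the 3 naive libraries of the EOS line in 2 genes, and this difference was not tested. For ACACB the log2 fold was 0.27 in CA-p38 cells and -0.37, -0.28 and -0.09 in AICAR 1, AICAR 2 and VPA cells, and the 95% binomial interval of the counts for VPA, from -0.21 to 0.04, holds 0. For NSDHL it was -0.042 in CA-p38 cells, with an interval from -0.12 to 0.04 that holds 0, and 0.37, 0.46 and 0.31 in the others.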

How the results depend on the processing

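Under 15 alternatives (median-ratio factors, library totals, DESeq2, limma-voom, 2 other filters, identifiers not summed, a block for the parental line, AICAR 1 and AICAR 2 added together, and each of the 6 libraries omitted), 27 to 31 of the 32 genes passed the threshold, 25 to 27 of them lower and 2 to 4 higher in naive cells. With each library left out in turn, the numbers were 27 to 30, 25 to 27 and 2 to 3. Of 480 single-gene values, 471 kept their direction and their side of the threshold, 6 lost the call, 1 gained it and 2 reversed, and 26 genes kept both throughout. The reversals were of ACACB, which passed the threshold nowhere, at 0.041 with library totals and 0.059 without the primed EOS library, in a range of -0.16 to 0.059 over the libraries omitted in turn. The log2 median fold over the parental library moved by more than 0.062, the SD of the 4 medians, in these cases: with library totals it was -0.81 in AICAR 2 and -0.90 in CA-p38, and against both primed libraries averaged it was -1.06 in VPA, -0.89 in CA-p38, -0.99 in AICAR 1 and -1.02 in AICAR 2. The median log2 fold change of all gene names ran from 0.03 without a filter to 0.20 with library totals. No paired analysis was possible because the labels give the groups no shared replicate numbers, and the parental line served as the block instead, with 30 genes past the threshold. Depth did not limit these genes, and the 2 primed libraries limit the precision of every difference.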
